A study of Mus musculus with 10 samples.

Results

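The fibroblast growth factor (FGF) pathway was followed through 10 genes: the ligands Fgf3, Fgf4, Fgf5 and Fgf8, the receptors Fgfr1 and Fgfr2, the feedback inhibitors Spry2, Spry4 and Dusp6, and the ERK-responsive transcription factor gene Etv4. They were chosen by name, and all 10 were found under these symbols among the 15686 genes of the authors' matrix of stage means and among the 55487 genes of the count tables. All 10 also passed the filter on low counts, which kept 22596 genes. In the study, HM-1 mouse ES cells, a single targeting line, were differentiated in serum toward blood progenitors. No other genotype was named for the RNA-seq libraries used here. Nuclear RNA was sequenced, which the study also used to look for transcripts at primed enhancers. ES cells were kept on gelatin in 15% FCS with LIF at 1000 U/ml. Embryoid bodies were then grown for 3 d in 15% FCS without LIF, and the FLK1+ cells sorted from them formed the hemangioblast (HB) stage. These cells were plated in blast culture for 2.5 d with 10% FCS, VEGF at 5 ng/ml, IL-6 at 10 ng/ml and 20% D4T conditioned medium, and sorted into the first hemogenic endothelium stage (HE1, KIT+ TIE2+ CD41−), the second (HE2, KIT+ TIE2+ CD41+) and hematopoietic progenitors (HP, KIT+ TIE2− CD41+). No FGF was named among the additives of any stage. There were 2 libraries for each of the 5 stages and 10 in all, with 24920434 to 58782055 counts per library. The paper calls replicates of this RNA-seq biologically independent. The p-values rest on a joint estimate of the spread between libraries of a stage, shared by all 5 stages. A gene's scatter in any stage thus enters each of its comparisons.

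FGF ligands are secreted proteins that bind receptor tyrosine kinases together with heparan sulfate, and the activated receptors signal through adaptors and RAS to the kinase ERK. ERK activity induces its own inhibitors, among them Sprouty proteins and the ERK phosphatase DUSP6, and genes of ETS transcription factors such as Etv4. In the early mouse embryo, FGF4 acts on pluripotent cells as they leave the ground state, and FGF8 is needed for mesoderm cells to migrate out of the primitive streak.

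Levels are given as CPM, which are counts scaled by the TMM-adjusted size of each library, and differences as log2 fold changes from edgeR's quasi-likelihood test. A gene was called where its p-value adjusted over the 22596 tested genes by the Benjamini-Hochberg method was below 0.05 and it changed at least 2-fold. The stages were first compared with their markers. Some of these markers encode sort antigens, among them Kdr (FLK1), Kit (KIT) and Itga2b (CD41), and are not independent of the sort. The summed level of 8 ES cell markers, led by Tdgf1, was 2990.4 and 2918 CPM (ES), 447 and 457 (HB), 47.2 and 105 (HE1), 21.5 and 10.4 (HE2) and 13.2 and 9.95 (HP). The markers were uneven between the HE1 libraries, where 7 of the 8 were higher in replicate 2. Pou5f1 was at 2.82 and 26.3 CPM in HE1 replicates 1 and 2, Nanog at 0.715 and 11.6 and Sox2 at 0.715 and 9.28, and none of the 8 markers was at 0 in either library. Klf4, the exception, was at 39.8 and 26.8 CPM and made up most of the sum in replicate 1. The summed level of 8 FLK1+ mesoderm markers, led by Kdr, was 21.8 and 22.6 CPM (ES), 2452 and 2958 (HB), 1469 and 855 (HE1), 1217 and 1011 (HE2) and 764 and 702 (HP), highest in the stage sorted by FLK1. After HB that sum was mostly Kdr and Tal1, at 1265 and 718 and at 185 and 109 CPM in HE1. By contrast, Mixl1 went from 332 and 406 CPM in HB to 0.631 and 1.26 in HE1 and Mesp1 from 74.7 and 78.4 to 0.0841 and 0.165. Tal1 itself was at 145 and 171 CPM in HB, and higher in HE2, at 277 and 374, and in HP, at 422 and 351. The summed level of 9 hemogenic endothelium markers, led by Cdh5, was 355 and 371 CPM (ES), 357 and 323 (HB), 3340.3 and 1992 (HE1), 2188 and 1513 (HE2) and 867 and 797 (HP), and Kit and Pecam1 made up most of it in ES, at 164 and 173 and at 158 and 164 CPM. Kit did not follow that sum, at 146 and 73.0 CPM in HE1, 230.3 and 410.3 for HE2 and 363 and 251 for HP. For 10 CD41+ blood cell markers, led by Itga2b, the sum was 32.9 and 30.6 CPM (ES), 161 and 155 (HB), 335 and 216 (HE1), 1068 and 1485 (HE2) and 1599 and 1353 (HP). In both sums HE2 replicate 1 was nearer to HE1 than HE2 replicate 2 was, but not every marker went with its sum. Kit and Erg, 2 of the 9 endothelium markers, were lower in HE2 replicate 1, Erg at 83.5 and 93.0 CPM. Of the 10 blood cell markers, Itga2b and Gfi1 were higher in HE2 replicate 1, at 505 and 469 and at 14.1 and 12.6 CPM. The rest of the blood cell markers were lower in that replicate. The HE1 libraries also differed in 8 smooth muscle and mesenchyme markers, led by Acta2, which summed to 877 and 1721 CPM there, against 139.5 and 157 (ES), 96.8 and 92.4 (HB), 1022 and 667 (HE2) and 1242 and 604 (HP). They differed as well in 5 cardiac markers, led by Tnnt2, with sums of 21.4 and 82.3 CPM in HE1, mostly from Tnnt2 itself, at 16.0 and 74.2 CPM. The sums of 5 neurectoderm and 6 endoderm markers were small there, at 0.673 and 2.71 CPM for the former and 4.46 and 8.06 for the latter, and their higher values in replicate 2 came from Sox1, at 0 and 2.15, and Cldn6, at 1.64 and 6.54, whereas Pax6, at 0.589 and 0.198, and Foxa2, at 2.48 and 0.826, were lower in replicate 2. In libraries of whole sorted populations, fewer cells that express a gene and less RNA per cell cannot be told apart.

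Fgf4, the FGF ligand that pluripotent cells themselves secrete, was measured at 287 and 281 CPM in the ES libraries and at 3.67 and 1.77 in HB. It was at 0.252 and 5.95 CPM in HE1, then at 0.366 and 0.317 for HE2 and 0.593 and 0.127 for HP. Both ES libraries thus stood far above the other 8, while the HE1 libraries lay on either side of the HB pair, with replicate 1 at the low level of HE2 and HP. Fgf4 fell 105-fold from ES to HB, at a log2 fold change of −6.72 (standard error 0.86, edgeR adjusted p = 1.69e-04). Between HB and HE1 it was not called, at a log2 fold change of 0.25 (standard error 0.79, edgeR adjusted p = 0.833), and the sign turned, to −3.39 and called without HE1 replicate 2, to −0.23 without HB replicate 2 and to −0.82 with limma-voom. The HE1 level rested on a single library. Of the 186 Fgf4 counts in HE1, 180 came from replicate 2, the library with the higher ES cell markers, and 6 from replicate 1. Between HE1 and HE2 it was not called, at −3.22 (standard error 1.04, edgeR adjusted p = 0.0634), although called without the filter, at −3.20, and without HE1 replicate 1, at −4.08, and it was 0.43 without HE1 replicate 2. To HP, Fgf4 fell from HE1 by a log2 fold change of −3.04 (standard error 0.99, edgeR adjusted p = 0.047), a call that was lost or turned in 12 of the 16 alternatives run. It was 0.62 without HE1 replicate 2 and −4.59 without HP replicate 1, and it was no longer called with limma-voom, with DESeq2, with total counts, with the replicate block, with only the 4 libraries of those stages, or without either HB, HE2 or HP library. The part of the marker sums that were higher in HE1 replicate 2, among them those of the ES cell, smooth muscle and cardiac markers, was not tested.

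Fgf3, a ligand of the same family that lies next to Fgf4, was measured at 2.80 and 3.36 CPM in ES, at 70.6 and 90.8 in HB and at 2.61 and 1.78 in HE1. It was at 4.45 and 8.16 CPM in HE2 and 8.67 and 11.9 in HP. HB was the high stage, and the order HB, HP, HE2, ES, HE1 held without any overlap between neighboring stages. Fgf3 rose 26.3-fold from ES to HB, a log2 fold change of 4.72 (standard error 0.34, edgeR adjusted p = 4.19e-06). It then fell 37.0-fold to HE1, at a log2 fold change of −5.21 (standard error 0.35, edgeR adjusted p = 1.05e-05). Both changes were called in each of the 16 alternatives, with log2 fold changes from 4.53 to 4.91 and from −5.54 to −4.95. Fgf3 then came up again to a low level in the CD41+ stages. The log2 fold change from HE1 to HE2 was 1.53 (standard error 0.33, edgeR adjusted p = 0.0193), and from HE1 to HP 2.23 (standard error 0.33, edgeR adjusted p = 0.00116). The call at HE2 was lost without HE1 replicate 2, at 1.27, without HE2 replicate 2, at 1.04, with limma-voom, at 1.49, and with only the 4 HE1 and HE2 libraries, at 1.52, whereas the call at HP was kept in each alternative.

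Fgf8, the ligand of the primitive streak, was measured at 1.47 and 1.58 CPM in ES, at 37.5 and 31.2 in HB and at 0.421 and 1.06 in HE1. It was at 0.0609 and 0.0317 CPM in HE2, from 2 and 1 counts, and at 0.137 and 0.159 CPM in HP. No pair of neighboring stages overlapped in the order HB, ES, HE1, HP, HE2. Fgf8 rose 22.5-fold from ES to HB, a log2 fold change of 4.49 (standard error 0.36, edgeR adjusted p = 8.66e-06), and this call held in each alternative. It then fell 45.2-fold to HE1, at a log2 fold change of −5.50 (standard error 0.39, edgeR adjusted p = 1.27e-05), which was −6.34 without HE1 replicate 2. The later levels rested on few counts. The ratio of HE1 to HE2 in summed counts over summed TMM-adjusted library sizes, from 42 against 3 counts, was 16.7. Its 95% interval for counting error alone was 5.32 to 84.0. The fitted log2 fold change was −3.92 (standard error 0.61, edgeR adjusted p = 0.0053), a call that was lost with only the 4 HE1 and HE2 libraries, and it was −3.08 without HE1 replicate 2. For HP against HE1 it was −2.34 (standard error 0.49, edgeR adjusted p = 0.00689), and it was no longer called without HE1 replicate 2, at −1.50, without HP replicate 1, at −2.21, or with only the 4 libraries of those stages, at −2.36.

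Fgf5, a ligand known as a marker of primed pluripotent epiblast, had the lowest stage maximum per kb of exon of the 10 genes, 1.75 ± 0.387 CPM per kb in HB (SD, n = 2). It was measured at 2.50 and 3.27 CPM in ES, 5.06 and 3.69 in HB and 0.0841 and 1.52 in HE1. In HE2 it was at 0.0914 and 0.0635 CPM and in HP at 0.0456 and 0.127. The HB libraries stood above the ES libraries and both above HE1, whereas HE1, HP and HE2 overlapped with their neighbors in the order of means. The difference between ES and HB, a log2 fold change of 0.60 (standard error 0.73, edgeR adjusted p = 0.553), was not called. Fgf5 fell from HB to HE1 (log2 fold change −2.40, standard error 0.80, edgeR adjusted p = 0.0413), ranging from −5.64 without HE1 replicate 2 to −1.57 without HE1 replicate 1. That call was lost without either ES or either HB library, with total counts and with only the 4 libraries of those stages. As for Fgf4, the HE1 counts were uneven, at 2 in replicate 1 and 46 in replicate 2. The step from HE1 to HE2, −3.35 (standard error 1.07, edgeR adjusted p = 0.0606), was not called but was so with DESeq2, at −3.41, without the filter, at −3.34, and without HE1 replicate 1, at −4.21, and it was −0.11 without HE1 replicate 2. Against HE1, Fgf5 fell in HP (log2 fold change −3.28, standard error 1.04, edgeR adjusted p = 0.0417), but its log2 fold change was −0.05 without HE1 replicate 2, and the call was also lost in 9 other alternatives, among them limma-voom, at −2.31. The fall was called without HE1 replicate 1, at −4.14. The part of the markers with higher sums in HE1 replicate 2 was not tested here either.

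Among these 4 ligand genes, levels per length changed places between ES and HB. Fgf4 was at 88.9 ± 1.25 CPM per kb of exon in ES (SD, n = 2) and at 0.852 ± 0.419 CPM per kb in HB, while Fgf3 went from 1.32 ± 0.168 CPM per kb to 34.7 ± 6.15 CPM per kb and Fgf8 from 1.13 ± 0.0553 CPM per kb to 25.4 ± 3.29 CPM per kb. Of the summed CPM per kb of the 4 ligand genes, Fgf4 held 96.5% and 95.7% in the ES libraries and 1.87% and 0.865% in HB. In the HB libraries Fgf3 held 49.5% and 60.8%, and Fgf8 45.3% and 36.0%. The leading ligand gene in ES was thus a minor part of the sum in HB. The sum itself was 93.1 and 92.0 CPM per kb (ES), 61.3 and 64.2 (HB), 1.55 and 4.02 (HE1), 2.11 and 3.66 (HE2), and 4.03 and 5.32 (HP). In HE2 and HP most of this 4-gene sum was Fgf3, with 90.7% and 95.9% in HE2 and 92.4% and 96.1% in HP. In HE1 the shares were not stable between libraries, as Fgf3 held 72.6% in replicate 1 and 19.1% in replicate 2, where Fgf4 held 46.3%. These shares leave out the other FGF ligand genes, of which Fgf10 had a higher mean per length than Fgf3 at each stage, with 1.37 ± 0.00662 CPM per kb in ES, 46.1 ± 4.91 CPM per kb in HB, 12.7 ± 4.36 CPM per kb for HE2 and 12.4 ± 1.90 CPM per kb for HP, and Fgf17 was at 16.0 ± 0.599 CPM per kb in ES and 0.375 ± 0.106 CPM per kb in HB.

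**Figure D1:**
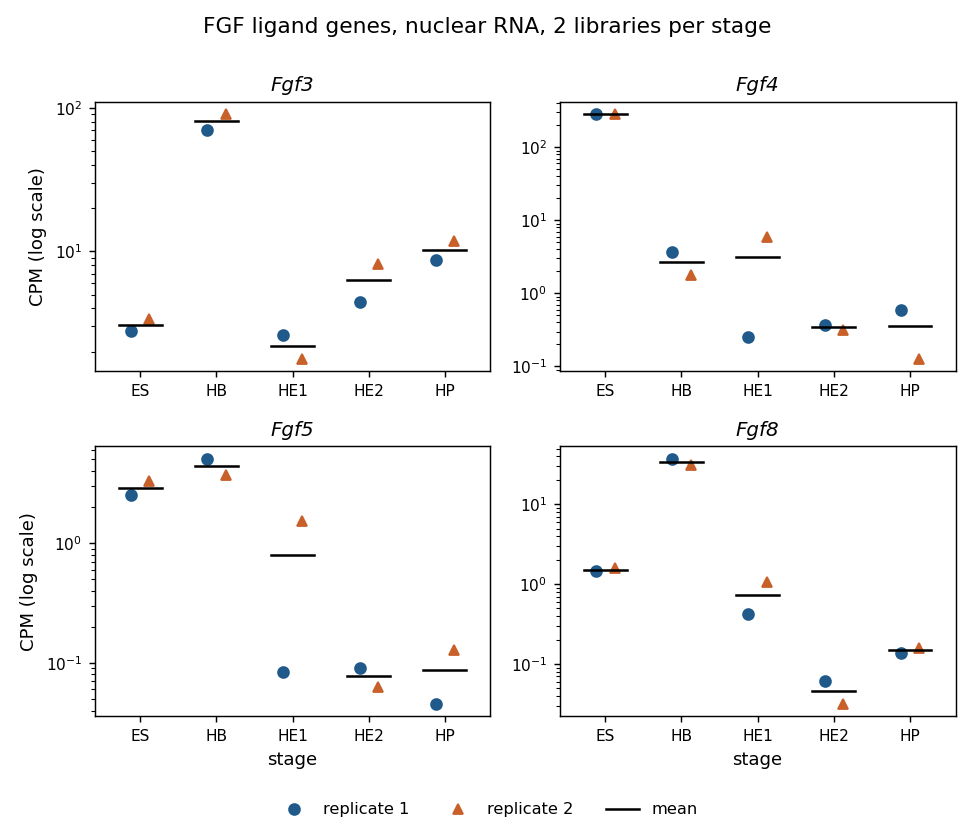
CPM of the ligand genes Fgf3, Fgf4, Fgf5 and Fgf8 on log axes at the 5 stages, with a circle for replicate 1, a triangle for replicate 2 and a line for the mean of the 2 libraries. Fgf4 is highest in ES, at 287 and 281 CPM, Fgf3 and Fgf8 are highest in HB, at 70.6 and 90.8 and at 37.5 and 31.2 CPM, and Fgf4 and Fgf5 are far apart between the HE1 libraries.

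**Figure D2:**
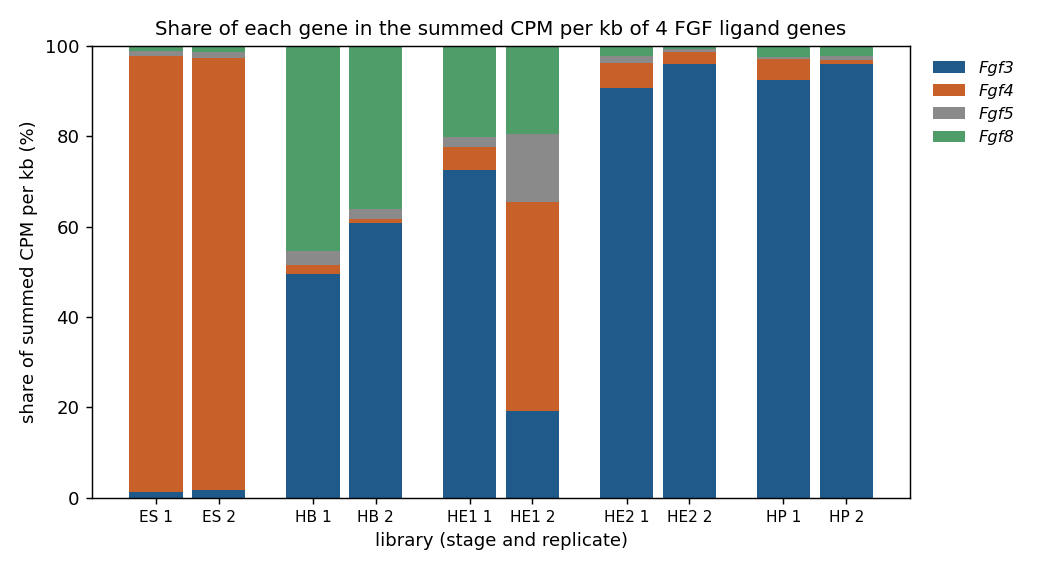
Share, in percent, of each gene in the summed CPM per kb of exon of Fgf3, Fgf4, Fgf5 and Fgf8, with 1 stacked bar per library. Fgf4 fills 96.5% and 95.7% of the ES bars, Fgf3 and Fgf8 fill nearly all of the HB bars, and the HE1 bars differ from each other.

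Fgf3 and Fgf4, which changed in opposite directions from ES to HB, are neighbors on the forward strand of chromosome 7. The annotated models on GRCm38 span chr7:144838083-144844436 for Fgf3 and chr7:144847367-144865243 for Fgf4, 2.93 kb apart, and Fgf15 starts 31.3 kb beyond the end of Fgf4. No exon of either model overlaps an exon of another gene, and the counts were made by strand. Promoter sequences from RefSeq (GRCm38.p6, 250 bases before to 50 after the start of transcription) were found for Fgf3, Fgf4, Fgf5, Fgfr2, Spry2 and Dusp6, 6 of the 10 genes. The other 4 genes are Fgf8, Fgfr1, Spry4 and Etv4. The 6 promoters were searched on both strands for the TATA box TATAAA, the CCAAT box CCAAT, the GC box GGGCGG, the ETS core CCGGAA, the octamer ATGCAAAT and the AP-1 site TGACTCA. No match overlapped another, and the RefSeq start of Fgf3, of Fgf4 and of Fgfr2 lies inside the annotated model. The distance of 2.93 kb is thus between the annotated models of Fgf3 and Fgf4 and was not taken from the RefSeq starts. Of 32851 promoters of this length in the table, 13.6% held the TATA box, 37.4% the CCAAT box, 35.7% the GC box, 14.9% the ETS core, 1.74% the octamer and 5.20% the AP-1 site. The promoters of the neighboring ligand genes are shown because their counts moved in opposite directions, with chr7:144838362-144838661 for Fgf3 and chr7:144861136-144861435 for Fgf4, both on the forward strand, and those of Spry2 (chr14:105896770-105897069, reverse strand) and Dusp6 (chr10:99262981-99263280, forward strand) because they are ERK feedback genes with different patterns. Capitals mark the matches.
Fgf3: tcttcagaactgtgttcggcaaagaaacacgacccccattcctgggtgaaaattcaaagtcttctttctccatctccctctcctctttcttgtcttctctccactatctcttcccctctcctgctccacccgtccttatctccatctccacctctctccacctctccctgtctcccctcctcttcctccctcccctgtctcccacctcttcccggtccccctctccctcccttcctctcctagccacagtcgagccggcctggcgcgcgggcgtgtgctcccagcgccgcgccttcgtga
Fgf4: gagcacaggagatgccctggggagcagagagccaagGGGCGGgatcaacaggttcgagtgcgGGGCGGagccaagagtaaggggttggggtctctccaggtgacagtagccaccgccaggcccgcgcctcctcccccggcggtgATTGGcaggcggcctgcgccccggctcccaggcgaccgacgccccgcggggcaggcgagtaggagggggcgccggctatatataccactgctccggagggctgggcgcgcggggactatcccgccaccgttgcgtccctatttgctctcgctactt
Spry2: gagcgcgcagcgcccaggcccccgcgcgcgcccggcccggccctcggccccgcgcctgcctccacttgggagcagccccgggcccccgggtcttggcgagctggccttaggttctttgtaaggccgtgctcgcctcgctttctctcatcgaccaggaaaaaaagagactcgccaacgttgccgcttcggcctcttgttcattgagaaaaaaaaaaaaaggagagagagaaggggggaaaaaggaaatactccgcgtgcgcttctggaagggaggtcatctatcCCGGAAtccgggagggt
Dusp6: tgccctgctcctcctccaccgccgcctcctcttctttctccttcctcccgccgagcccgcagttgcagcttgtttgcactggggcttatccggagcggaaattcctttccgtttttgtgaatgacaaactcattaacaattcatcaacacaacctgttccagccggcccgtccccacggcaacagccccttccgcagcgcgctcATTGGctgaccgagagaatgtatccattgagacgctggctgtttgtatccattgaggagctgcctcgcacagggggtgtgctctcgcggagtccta

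The Fgf4 window held GC boxes starting 214 and 188 bases before the start of transcription and a CCAAT box on the opposite strand 106 bases before it. The Fgf3 window held none of the 6 motifs, and neither did that of Fgfr2, which says only that these letters are not in them. The Fgf5 window held a TATA box at base 35 after the start and, on the opposite strand, a GC box 74 and an ETS core 241 bases before it. The Spry2 window held an ETS core at base 34 after the start, and the Dusp6 window a CCAAT box on the opposite strand 46 bases before it. G and C made up 59.3% of the Fgf3 window, 69.7% of that of Fgf4, 68.3% of Fgf5, 62.7% of Spry2 and 57.3% of Dusp6. The Fgfr2 window held 43.7%, and the median over the table was 52.7%. The matches are a description of the letters, and binding of a factor to them was not measured.

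Fgfr1, the receptor that binds FGF4 and FGF8 in the early embryo, had its higher values in the first 3 stages. It was measured at 219 and 230.3 CPM in ES, 227 and 206 in HB and 242 and 220.5 in HE1. In HE2 it was at 118 and 59.2 CPM and in HP at 58.6 and 63.7. The libraries of ES, HB and HE1 overlapped with those of their neighbors in the order of means and all 6 lay above the 4 of HE2 and HP, which overlapped with each other. Fgfr1 fell 2.60-fold from HE1 to HE2, at a log2 fold change of −1.38 (standard error 0.26, edgeR adjusted p = 0.012), which was −0.95 without HE2 replicate 2 and then no longer called. Against HE1 it fell 3.78-fold in HP (log2 fold change −1.92, standard error 0.26, edgeR adjusted p = 8.69e-04), in each of the 16 alternatives. Between ES and HB the log2 fold change was −0.05 (standard error 0.25, edgeR adjusted p = 0.892), and 0.03 with total counts. Between HB and HE1 it was 0.10 (standard error 0.25, edgeR adjusted p = 0.796), and −0.02 without HE1 replicate 1, so that the sign of these small differences was not fixed. The HE2 library with more Fgfr1, replicate 1, was also the library with the higher sum of hemogenic endothelium markers, and the part of that difference in the result was not tested.

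Fgfr2, the receptor gene with the alternative forms used by epithelium and mesenchyme, was measured at 64.9 and 61.8 CPM in ES, 32.5 and 31.3 in HB and 16.4 and 22.5 in HE1. It was at 11.4 and 8.51 CPM in HE2 and 10.0 and 7.38 in HP. Unlike Fgfr1, it was lower at each stage from ES to HE2 with no overlap between neighbors, and HE2 and HP overlapped. Each of these steps was below or at the edge of the 2-fold limit and was not called. The log2 fold change was −0.99 (standard error 0.21, edgeR adjusted p = 0.00406) from ES to HB, −0.71 (standard error 0.22, edgeR adjusted p = 0.0286) from HB to HE1 and −0.97 (standard error 0.22, edgeR adjusted p = 0.0229) from HE1 to HE2. The first of them was called with DESeq2 and without ES replicate 2, at −1.01, and the last with total counts, at −1.08, without HE1 replicate 1, at −1.15, and without HE2 replicate 1, at −1.17, against −0.73 without HE1 replicate 2. Over both steps from HE1 to HP, Fgfr2 fell 2.23-fold (log2 fold change −1.16, standard error 0.22, edgeR adjusted p = 0.00433), a call that was lost without HE1 replicate 2, at −0.91, and without HP replicate 2, at −0.94. The Fgfr2 counts are uncertain in part, because the annotated gene spans chr7:130162451-133123350, with other genes inside it, and shares 314 bp of exon on the same strand with Ctbp2, a transcriptional co-repressor gene. A read pair there was counted on both genes. Ctbp2 was at a mean of 269.7 (ES), 78.0 (HB), 91.7 (HE1), 63.0 (HE2) and 53.2 (HP) CPM. If its counts were spread evenly over its exons, the shared stretch would hold 13.6 CPM (ES), 3.94 (HB), 4.63 (HE1), 3.18 (HE2) and 2.69 (HP), which is 12.3% of the Fgfr2 level in HB and 32.0% of that in HE2. How the reads were in fact spread was not tested. Per kb of exon, Fgfr1 was above Fgfr2 at each stage, with 22.7 ± 0.833 CPM per kb against 6.13 ± 0.210 CPM per kb in ES and 6.19 ± 0.367 CPM per kb against 0.843 ± 0.182 CPM per kb in HP.

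Spry2 encodes a Sprouty protein that dampens receptor signaling to ERK. It was measured at 114 and 108 CPM in ES, 44.3 and 48.6 in HB and 28.5 and 22.0 in HE1, and at 32.3 and 25.7 in HE2 and 22.8 and 20.1 in HP. ES stood above HB and HB above the 6 later libraries, among which HE2 and HE1, and HE1 and HP, overlapped. Spry2 fell 2.39-fold from ES to HB, at a log2 fold change of −1.26 (standard error 0.17, edgeR adjusted p = 2.76e-04), in each alternative. From HB to HE1 the log2 fold change of −0.88 (standard error 0.18, edgeR adjusted p = 0.00408) stayed under 2-fold, and it was called without HB replicate 1, at −1.01, and without HE1 replicate 1, at −1.12, against −0.70 without HE1 replicate 2. After HE1 it was not called, with 0.20 (standard error 0.17, edgeR adjusted p = 0.419) to HE2 and −0.23 (standard error 0.18, edgeR adjusted p = 0.351) to HP.

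Spry4 is another Sprouty gene. It was measured at 152 and 149 CPM in ES, 58.7 and 57.4 in HB and 15.6 and 14.1 in HE1, and at 7.80 and 1.17 in HE2 and 1.48 and 2.19 in HP. ES, HB, HE1 and HE2 followed each other without overlap, and HE2 and HP overlapped. The HE2 libraries of Spry4 were far apart, with the higher value in replicate 1. From ES to HB the log2 fold change was −1.37 (standard error 0.51, edgeR adjusted p = 0.0539) and just missed the threshold, and it was called with limma-voom, without the filter, with only the 4 ES and HB libraries and without either HE2 library, with log2 fold changes from −1.39 to −1.29 over the alternatives. Spry4 fell from HB to HE1 (log2 fold change −1.97, standard error 0.53, edgeR adjusted p = 0.0176), a call lost without HB replicate 1, at −2.02, without HB replicate 2, at −2.03, and without HE1 replicate 2, at −1.89. The step from HE1 to HE2 was not called, at −1.72 (standard error 0.55, edgeR adjusted p = 0.0618), but was −3.63 and called without HE2 replicate 1 and −0.91 without HE2 replicate 2, and it was also called with limma-voom, at −2.26, and without the filter. In HP it had fallen 8.15-fold from HE1 (log2 fold change −3.03, standard error 0.60, edgeR adjusted p = 0.00519), a call lost without HP replicate 1, at −2.74.

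Dusp6, the ERK phosphatase, was highest in HB and not in ES. It was measured at 70.4 and 65.3 CPM in ES, 108 and 88.1 in HB and 60.3 and 47.5 in HE1, and at 39.2 and 12.5 in HE2 and 13.1 and 19.0 in HP. The HB libraries were the highest, above ES, HE1 and HE2 in turn without overlap, and HE2 and HP overlapped. None of the steps between neighboring stages was called by edgeR. The log2 fold change was 0.53 (standard error 0.40, edgeR adjusted p = 0.321) from ES to HB, −0.86 (standard error 0.40, edgeR adjusted p = 0.122) from HB to HE1 and −1.06 (standard error 0.40, edgeR adjusted p = 0.0964) from HE1 to HE2. The last of these was called with DESeq2, without the filter and, at −2.09, without HE2 replicate 1, and it was −0.45 without HE2 replicate 2. Dusp6 fell 3.36-fold from HE1 to HP (log2 fold change −1.75, standard error 0.41, edgeR adjusted p = 0.0126), a call lost without HP replicate 1, at −1.49.

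Etv4, an ETS factor gene induced by FGF signaling, was measured at 57.5 and 57.9 CPM in ES, 30.8 and 27.8 in HB and 7.99 and 16.3 in HE1, and at 3.84 and 0.603 in HE2 and 1.94 and 1.21 in HP. Its order was that of Spry4, with no overlap from ES to HE2 and an overlap of HE2 with HP. The differences from ES to HB, −0.979 (standard error 0.53, edgeR adjusted p = 0.172), and from HB to HE1, −1.27 (standard error 0.54, edgeR adjusted p = 0.0982), were not called. The latter was called with limma-voom, at −1.31, without the filter, with only the 4 HB and HE1 libraries, and without either HE2 library, and it was −0.89 without HE1 replicate 1. Etv4 fell from HE1 to HE2 (log2 fold change −2.44, standard error 0.60, edgeR adjusted p = 0.029), which was −4.30 without HE2 replicate 1. That call was lost without HE1 replicate 2, at −1.84, without HE2 replicate 2, at −1.64, and with only the 4 libraries of those stages, at −2.48. In HP it had fallen 7.62-fold from HE1 (log2 fold change −2.93, standard error 0.61, edgeR adjusted p = 0.00681), in each alternative, with −2.32 without HE1 replicate 2. Spry4, Dusp6, Etv4 and Fgfr1 were all higher in HE2 replicate 1, the library with the higher sum of hemogenic endothelium markers, than in HE2 replicate 2, and the part of that difference in the results was not tested.

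**Figure D3:**
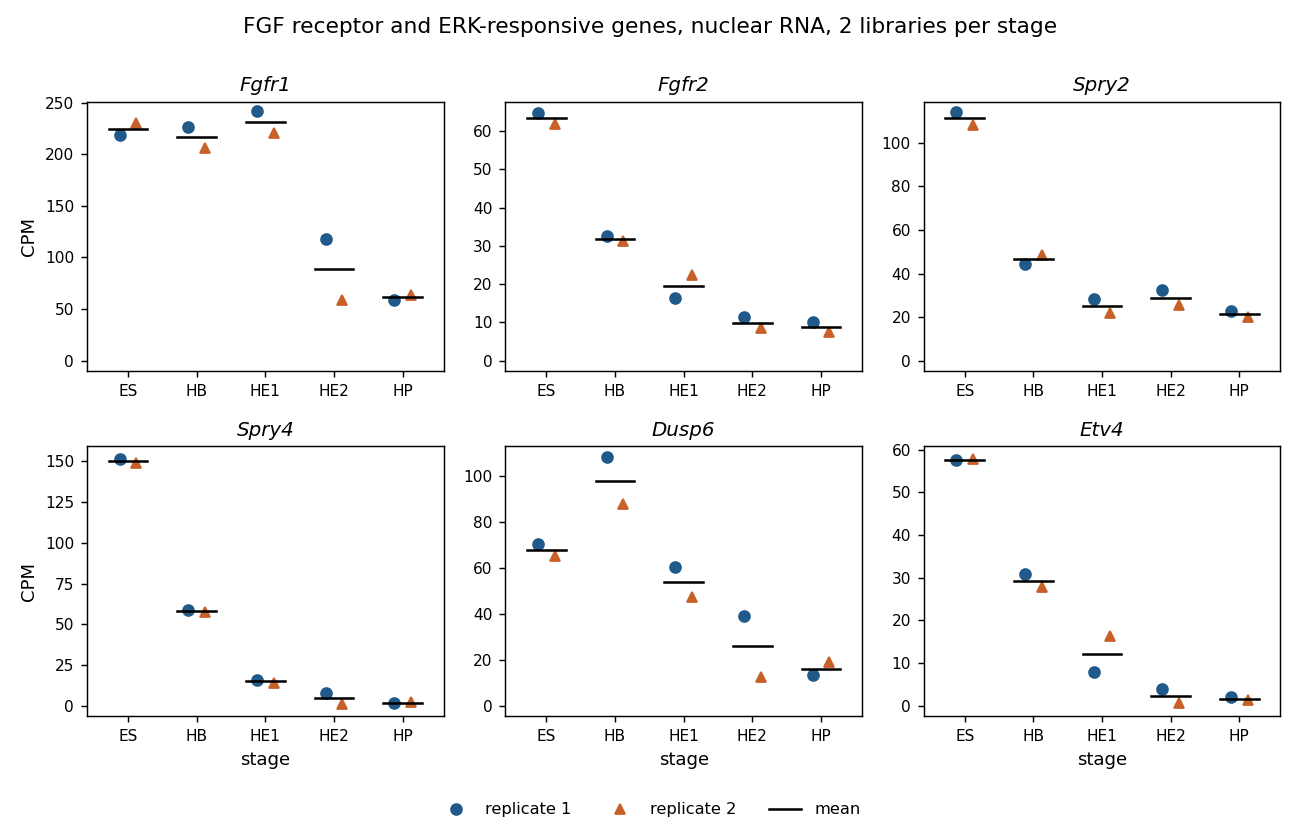
CPM of the receptor genes Fgfr1 and Fgfr2 and of the ERK-responsive genes Spry2, Spry4, Dusp6 and Etv4 on linear axes at the 5 stages, with a circle for replicate 1, a triangle for replicate 2 and a line for the mean of the 2 libraries. Fgfr1 is between 206 and 242 CPM up to HE1 and lower in HE2 and HP, Fgfr2, Spry2, Spry4 and Etv4 are highest in ES, and Dusp6 is highest in HB.

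Over the 10 genes, 2 rose from ES to HB (Fgf3 and Fgf8) and 2 fell (Fgf4 and Spry2), where edgeR called 11.5% of all tested genes higher and 17.3% lower. From HB to HE1 4 of the 10 fell (Fgf3, Fgf5, Fgf8 and Spry4) and 0 rose, against 12.7% of all tested genes higher and 8.19% lower. The count of 0 was also 0 at an unadjusted p below 0.05 and 0 with limma-voom and with DESeq2, and leaving out 1 library the count of 4 ranged from 2 (without HB replicate 2) to 5, where edgeR called 1334 of 24360 genes lower in the former fit. At that unadjusted p 7 of the 10 genes were lower in HE1 than in HB, and of all 22596 tested genes 5327 were higher and 4585 lower. From HE1 to HE2 3 fell (Fgf8, Fgfr1 and Etv4) and 1 rose (Fgf3), against 3.26% of all tested genes higher and 5.39% lower. Leaving out 1 library, the count of 3 ranged from 1 (without HE2 replicate 2) to 6 (without replicate 1 of HE1 or of HE2), and the count of 1 was 0 without replicate 2 of HE1 or of HE2. The counts over all tested genes moved with them, with 98 of 24420 lower without HE2 replicate 2, 2927 of 24371 without HE1 replicate 1 and 2118 of 24418 without HE2 replicate 1, and 368 of 23598 higher without HE1 replicate 2 and 324 of 24420 without HE2 replicate 2. From HE2 to HP none of the 10 was called by edgeR, limma-voom or DESeq2, and edgeR called 0% of all tested genes higher and 0% lower. At an unadjusted p below 0.05 the edgeR count there was 1 gene higher (Fgf3) and 1 lower (Spry2) of the 10, and 670 higher and 1113 lower of all tested genes. Over all genes limma-voom called 35 higher and 27 lower, and DESeq2 107 and 193. Without HE2 replicate 2, edgeR called 50 genes higher and 475 lower in HP than in HE2, among the latter Spry4 (−2.10) and Dusp6 (−1.29), and without the filter 145 and 389, among the latter Spry4 (−1.31). Without HE2 replicate 1 the sign of that difference turned, to 0.62 for Spry4, 0.36 for Dusp6 and 1.397 for Etv4. From HE1 to HP 8 of the 10 fell, the exceptions being Spry2, which was not called, and Fgf3, the 1 gene that rose, against 5.35% of all tested genes higher and 11.2% lower. The lower count was 4 without HE1 replicate 2, 3 without HP replicate 1 and 5 without HP replicate 2, where edgeR called 1618 of 23598, 1135 of 24376 and 1911 of 24286 tested genes lower. The median log2 fold change of the 10 genes was −0.52 from ES to HB, −1.07 from HB to HE1, −1.55 from HE1 to HE2, −0.31 from HE2 to HP and −2.13 from HE1 to HP. Over all tested genes the medians were 0.00, 0.04, −0.08, 0.01 and −0.02 in the same order. The comparisons of HE1 with HE2 and with HP share the HE1 libraries. In the authors' matrix, the order of the stage means was the same for 8 of the 10 genes, while Fgf4 was lower in HE1 than in HB and lower in HP than in HE2 there, and Etv4 was higher in HP than in HE2.

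The course of each gene over the 10 libraries was set beside those of 12226 other genes that reached 9 CPM at a stage, by Pearson's r of log2 CPM, as a description of points that share stages in pairs. Among the ligands, Fgf4 was most like Cgn (r = 0.995), Sox2 (r = 0.994) and Platr10 (r = 0.993) and Fgf8 was most like Plekha6 (r = 0.993), Pik3ip1 (r = 0.990) and Sp5 (r = 0.989). Fgf3 was closest to Kcnc1 (r = 0.971), Zfp395 (r = 0.965) and Nek1 (r = 0.965), and Fgf5 to Cacna1g (r = 0.987) and Mier2 (r = 0.976). Of the receptors, Fgfr1 was most like Rgmb (r = 0.996), Tnks1bp1 (r = 0.995) and Rara (r = 0.992), and Fgfr2 most like Rhebl1 (r = 0.996), Bcat1 (r = 0.995) and Scpep1 (r = 0.994). Spry2 was most like Odc1 (r = 0.988), Angel1 (r = 0.983) and Gm7993 (r = 0.982), and Spry4 most like Adam23 (r = 0.990), Mboat2 (r = 0.986) and Adcy3 (r = 0.986). Dusp6 was closest to Cacna1h (r = 0.991), Etv1 (r = 0.985) and Cabp1 (r = 0.9797). Etv4 was closest to Efr3b (r = 0.991), Plxnb1 (r = 0.990) and Gpc2 (r = 0.988). Among the 10 genes themselves, r was 0.977 between Spry4 and Etv4, 0.965 between Fgfr2 and Etv4, 0.946 between Fgfr1 and Dusp6, and −0.244 between the neighbors Fgf3 and Fgf4. Fgf3 had r from −0.244 to 0.634 with the other genes.

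The wider pathway was described from lists by the same test, beside the medians over all tested genes and the percentages given above. Of 14 further FGF ligand genes 11 passed the filter, all but Fgf6, Fgf16 and Fgf21, and edgeR called 2 higher and 2 lower from ES to HB, 3 and 3 from HB to HE1, 1 and 0 from HE1 to HE2 and 1 and 1 from HE1 to HP. The median log2 fold changes were −0.58 from ES to HB, 0.59 from HB to HE1, −0.84 from HE1 to HE2 and −0.66 from HE1 to HP. Fgf10, a ligand best known from limb and lung buds, was at 6.30 and 6.34 CPM in ES, 196 and 228 in HB and 19.2 and 13.9 in HE1, then at 44.1 and 72.4 for HE2 and 63.0 and 50.7 for HP. Like Fgf3 it was highest in HB and higher in HE2 and HP than in HE1, with no overlap between those levels, but its lowest stage was ES. Its log2 fold change was 5.07 from ES to HB, −3.68 to HE1, 1.82 from there to HE2 and 1.78 to HP, called in each of the 16 alternatives. Fgf17, a relative of Fgf8, fell from 27.8 and 26.4 CPM in ES to 0.760 and 0.507 in HB, and Fgf15, the next gene beyond Fgf4, from 13.9 and 15.9 in HB to 0.589 and 1.32 in HE1, at log2 fold changes of −5.42 and −3.94. The other called ligands stayed below 9 CPM and were named after their values were seen: Fgf9 rose from ES to HB; Fgf1 fell from ES to HB; Fgf1, Fgf2 and Fgf7 rose from HB to HE1; Fgf9 fell from HB to HE1; Fgf1 fell from HE1 to HP. Of 4 FGF homologous factors, which act inside the cell, 3 were tested, with medians of 0.79 from ES to HB, −1.61 from HB to HE1, 0.70 from HE1 to HE2 and 0.53 from HE1 to HP, and the called genes, also named after their values were seen, were these: Fgf12 rose from ES to HB; Fgf11 and Fgf12 fell from HB to HE1.

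Of 10 further receptor and co-receptor genes, all but Kl were tested, and edgeR called 2 higher and 2 lower from ES to HB, 2 and 1 from HB to HE1, 1 and 2 from HE1 to HE2 and 0 and 3 from HE1 to HP. The median log2 fold changes were −0.40 from ES to HB, 0.76 from HB to HE1, −0.99 from HE1 to HE2 and −2.68 from HE1 to HP. Fgfr3, another signaling receptor, was at 4.53 and 4.03 CPM in HB, 8.20 and 9.45 in HE1 and 16.1 and 22.5 in HE2, and thus rose where Fgfr1 fell, at a log2 fold change from HE1 to HE2 of 1.13. That call was lost without HE1 replicate 1, at 1.06, without HE1 replicate 2, at 1.23, without HE2 replicate 2, at 0.88, and with only the 4 libraries of those stages, at 1.11. Among the co-receptors and binding proteins the calls (log2 fold changes) were Flrt3 (1.79), Fgfrl1 (1.33) and Fgfbp1 (−6.90) from ES to HB, Flrt2 (4.64) and Flrt3 (−1.35) to HE1, Flrt2 (−1.40) from HE1 to HE2 and Flrt2 (−3.35) from HE1 to HP. Fgfbp1 had 10 and 0 counts in HB, and its log2 fold change was −12.42 without HB replicate 1 and −5.83 without HB replicate 2. The call of Flrt3 to HE1 was lost without HE1 replicate 2, at −0.89, and that of Flrt2 to HE2 without HE1 replicate 1, at −0.67, without HE2 replicate 2, at −1.20, and with only the 4 libraries, at −1.40. Named after their values were seen were these: Fgfr4 fell from ES to HB; Fgfr3 rose from HB to HE1; Flrt1 fell from HE1 to HE2; Fgfr4 and Flrt1 fell from HE1 to HP. All 18 genes of heparan sulfate core proteins and enzymes were tested, and edgeR called 4 higher and 4 lower from ES to HB, 2 and 5 from HB to HE1, 0 and 5 from HE1 to HE2 and 0 and 8 from HE1 to HP, with median log2 fold changes of 0.06 from ES to HB, −0.13 from HB to HE1, −0.51 from HE1 to HE2 and −0.80 from HE1 to HP. Those named by rule were Hs3st3b1 (3.44), Gpc3 (2.19), Ndst2 (1.34), Sdc4 (−3.49), Hs6st1 (−2.67) and Gpc4 (−1.84) from ES to HB, Hs6st2 (2.28), Hs6st1 (1.38), Gpc3 (−3.85), Hs3st3b1 (−3.10) and Gpc1 (−1.97) to HE1, Gpc1 (−1.73), Sdc4 (−1.71) and Hs3st3b1 (−1.64) from HE1 to HE2 and Hs3st3b1 (−2.60), Sdc4 (−1.67) and Sulf1 (−1.58) from HE1 to HP, and those named after their values were seen were these: Sdc2 rose from ES to HB; Sulf2 fell from ES to HB; Sulf1 and Sdc2 fell from HB to HE1; Ext1 and Sulf1 fell from HE1 to HE2. The calls of Gpc1 and Sdc4 to HE2 were lost without HE1 replicate 2, at −1.36 and −1.08, and with only the 4 libraries, at −1.76 and −1.74, that of Sdc4 also without HE2 replicate 2, at −1.36, and that of Sulf1 to HP without HE1 replicate 2 or HP replicate 2, at −1.17 and −1.33.

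Between receptor and ERK, 21 adaptor and cascade genes were tested, and edgeR called 4 higher and 1 lower from ES to HB, 1 and 3 from HB to HE1, 0 and 0 from HE1 to HE2 and 0 and 2 from HE1 to HP. The median log2 fold changes were 0.24 from ES to HB, 0.07 from HB to HE1, −0.02 from HE1 to HE2 and −0.05 from HE1 to HP. Named by rule were Ksr1 (1.87), Sos2 (1.60), Nf1 (1.35) and Gab1 (−2.25) from ES to HB, Ksr1 (1.39), Braf (−1.64) and Map2k1 (−1.25) to HE1 and Ksr1 (−1.41) from HE1 to HP, all kept in each alternative, and after their values were seen: Braf rose from ES to HB; Frs3 fell from HB to HE1; Frs3 fell from HE1 to HP. The adaptor gene Gab1, like Fgf4 and Spry2, was highest in ES, at 483 and 483 CPM against 102 and 101 in HB. Of 15 other inhibitor genes of the pathway, all but Spry3 were tested, and edgeR called 2 higher and 2 lower from ES to HB, 0 and 2 from HB to HE1, 1 and 5 from HE1 to HE2 and 0 and 9 from HE1 to HP, with median log2 fold changes of −0.12 from ES to HB, 0.04 from HB to HE1, −0.87 from HE1 to HE2 and −1.26 from HE1 to HP. Il17rd, whose product holds back FGF receptor signaling, was at 192 and 209.7 CPM in ES, 189.9 and 212 in HB and 29.7 and 39.6 in HE1, then at 19.9 and 6.83 for HE2 and 7.51 and 10.97 for HP, so that ES and HB overlapped where those of Spry2 did not. Named by rule were Dusp2 (5.26), Spred1 (1.04), Lrig1 (−1.77) and Dusp9 (−1.20) from ES to HB, Il17rd (−2.53) and Spry1 (−1.65) to HE1, Spry1 (1.39), Spred3 (−1.86), Il17rd (−1.38) and Dusp9 (−1.35) from HE1 to HE2 and Spred3 (−1.997), Il17rd (−1.91) and Spred2 (−1.48) from HE1 to HP, and after their values were seen: Dusp1 and Lrig1 fell from HE1 to HE2. Spry1, a further Sprouty gene, thus rose from HE1 to HE2, a call that was lost with only the 4 libraries of those stages, at 1.38. Spred3, Il17rd and Dusp9 lost their calls to HE2 without HE1 replicate 2, at −1.80, −1.16 and −0.46, and without HE2 replicate 2, at −1.29, −0.79 and −0.97, as did Spred3 with only the 4 libraries and Il17rd and Dusp9 in 7 and 10 further alternatives. To HP, Spred3 lost its call without HE1 replicate 2 or HP replicate 1, at −1.94 and −1.49, and Il17rd without HP replicate 1, at −1.64; Dusp9 lost its call to HB without any 1 of the 4 ES and HB libraries and with total counts, over a range of −1.27 to −1.10 in all alternatives.

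All 16 other ERK-responsive transcription factor genes were tested, and edgeR called 4 higher and 1 lower from ES to HB, 3 and 5 from HB to HE1, 0 and 1 from HE1 to HE2 and 0 and 4 from HE1 to HP, with median log2 fold changes of 0.06 from ES to HB, −0.22 from HB to HE1, −0.32 from HE1 to HE2 and −0.42 from HE1 to HP. Etv5, the closest relative of Etv4, was at 351 and 336 CPM in ES, 87.9 and 90.5 in HB and 12.1 and 27.5 in HE1, then at 9.81 and 3.397 for HE2 and 4.13 and 4.39 for HP. Its order of stages was that of Etv4, with no overlap from ES to HE2. Named by rule were Fos (3.999), Myc (2.21), Elk3 (1.98) and Etv5 (−1.94) from ES to HB, Elk3 (2.15), Elk4 (1.06), Etv5 (−2.17), Fos (−2.002) and Etv1 (−1.75) to HE1, Etv5 (−1.59) from HE1 to HE2 and Etv5 (−2.22), Elk3 (−1.65) and Erf (−1.03) from HE1 to HP, and after their values were seen: Egr2 rose from ES to HB; Fosl1 rose from HB to HE1; Egr1 and Myc fell from HB to HE1; Etv1 fell from HE1 to HP. Etv5 lost its call to HE2 in 9 of the 16 alternatives, among them without HE1 replicate 2, at −0.87, and without HE2 replicate 2, at −0.998, and its call to HP without HP replicate 1, at −2.16. Etv1 lost its call to HE1 without either HB library, at −1.73 and −1.88, and without HE1 replicate 2, at −1.61, and Elk4 without HB replicate 2 or HE1 replicate 1, at 0.87 and 0.87. Erf, near the 2-fold limit, lost its call to HP in 6 alternatives, with −1.15 to −0.87 over all of them. Between HE2 and HP, edgeR called none of the genes of these lists, DESeq2 1 receptor gene and limma-voom none.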

How the data were processed

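Nuclear RNA was measured in 2 libraries of each of 5 stages. The authors removed rRNA reads with RiboDetector, trimmed with Trimmomatic and aligned to mm10 with HISAT2 2.2.1, and per the file headers the deposited counts are raw fragment counts per gene from featureCounts 2.0.1 on the exons of Ensembl release 102, reverse stranded, with a fragment that overlaps several genes counted on each. The authors also deposited a matrix with 1 expression score per gene and stage, a normalized mean over the libraries, which was used only to find the genes and to rank the stages.

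Counts were tested with edgeR 4.0.16 in R 4.3.3 by a quasi-likelihood fit of stage to all 10 libraries, after filterByExpr and TMM scaling, with 5 residual degrees of freedom, in 5 comparisons (HB with ES, HE1 with HB, HE2 with HE1, HP with HE2 and HP with HE1). Standard errors are the log2 fold change over the square root of F. The lowest TMM factor was 0.954 and the highest 1.13. Before TMM scaling, 3 counts in a library are 0.0510 to 0.120 CPM. Length is the exon length in the count tables. Alternatives were limma-voom 3.58.1, DESeq2 1.42.0 with its size factors, total counts, no filter, only the 4 libraries of a comparison, a replicate block, other fold limits, leaving out each library, and another length. For genes named from the lists, these were chosen after seeing the data.

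The genes and the lists were chosen with earlier results of these data known. The genes named were the 10 in each comparison. From each list, up to 3 called genes per direction and comparison were named, with the largest changes among those reaching 9 CPM in either stage, as were up to 3 genes most like each of the 10 in course (log2 CPM with a prior count of 2), genes sharing exons with them, and stage markers.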

Additional observations from a re-analysis of the deposited data

How the results depend on the processing

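Of the 50 log2 fold changes of the 10 genes over the 5 comparisons, 46 kept their direction and their side of the threshold with DESeq2, 45 with total counts, 43 without the filter, 40 with limma-voom, and 38 of 46 with only the 4 libraries of a comparison, where the filter removed Fgf5 in 3 comparisons and Fgf8 in 1. When each library was left out in turn, 438 did, 31 calls were lost, 15 gained and 16 signs turned, and the library left alone in its stage was assumed to vary like the other stages.

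The count of genes lower in HB than in ES was 1 at 4-fold. For the 4-fold limit no share of all tested genes is given, so the counts at that limit cannot be set beside one. Between HE1 and HE2 the higher count was 0 with limma-voom, with only the 4 libraries and at 4-fold. Of all tested genes, 769 of 22596 were called higher with limma-voom and 364 of 18939 with only the 4 libraries. The lower count was 5 with DESeq2, 7 without the filter and 1 with only the 4 libraries. In those fits 1808 of 22596, 2864 of 39019 and 171 of 18939 tested genes were called lower. The lower count in HP was 1 without the filter against HE2 (of all genes 389 of 39019). Against HE1 it was 5 with only the 4 libraries (of all genes 2019 of 19245) and 5 at 4-fold. Leaving out a library, the lower counts ranged from 2 to 5 (HE1 against HB), 1 to 6 (HE2 against HE1), 0 to 2 (HP against HE2) and 3 to 8 (HP against HE1), and the higher count of HE2 against HE1 from 0 to 1. The causes were not tested.

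Signs turned for Fgfr1 in HB against ES with total counts (0.0282), and with limma-voom for Fgf4 in HE1 against HB (−0.82) and, in HP against HE2, for Fgf4 (−0.19), Fgf5 (−0.0739) and Etv4 (0.0184). Leaving out a library, log2 fold changes that turned ranged from −0.0982 to 0.0173 (Fgfr1, HB against ES), −3.39 to 1.10 (Fgf4, HE1 against HB), −0.0167 to 0.17 (Fgfr1, HE1 against HB), −4.08 to 0.43 (Fgf4, HE2 against HE1) and −4.59 to 0.62 (Fgf4, HP against HE1). In HP against HE2 they ranged from −1.40 to 0.79 (Fgf4), −0.72 to 0.68 (Fgf5), −0.95 to 0.0449 (Fgfr1), −0.43 to 0.0349 (Fgfr2), −2.10 to 0.62 (Spry4), −1.29 to 0.36 (Dusp6) and −1.26 to 1.397 (Etv4). The causes were not tested.

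With the replicate number as a block, the higher and lower counts were 2 and 2, 0 and 4, 1 and 3, 0 and 0, and 1 and 6, in the order HB with ES, HE1 with HB, HE2 with HE1, HP with HE2 and HP with HE1, against 8 lower in the last without it. Of all 22596 tested genes, 2430 and 3710, 2494 and 1682, 651 and 766, 0 and 0, and 1099 and 2137 were called in that order. Without the block, 2525 of all tested genes were lower in the last. The pairing has no basis in the labels beyond a shared number, and the deviations of libraries with the same number correlated at r from −0.316 to 0.213.

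Of 65 changes of genes named from the lists, 47 were called in each alternative. Of the higher and lower counts over the lists, 11 moved by more than a small margin with only the 4 libraries, and 59 did not. Without the filter 10 moved so, with limma-voom 5, with the replicate block 4, with DESeq2 3 and with total counts 3. With the mean length of annotated transcripts in place of exon length, 7 of the 10 genes changed rank by level, and Fgf4 stayed highest and Fgf5 lowest. Depth limits Fgf4, Fgf5 and Fgf8 in the CD41+ stages, where a library held few counts of each.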
